A study of Homo sapiens with 6 samples.

Results

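NRF2 (gene NFE2L2) and its antioxidant targets were examined in the ovarian cancer cell line HEY, with and without depletion of the splicing factor PQBP1. The 9 genes, taken by gene name from the 32679 genes of the expression table, were NFE2L2, its inhibitor KEAP1, and the targets NQO1, HMOX1, GCLM, GCLC, TXNRD1, SRXN1 and OSGIN1. All 9 were listed, and all 9 had a mean FPKM (sequenced fragments divided by transcript length and by the depth of the library) of at least 1 over the samples. Poly(A) RNA-seq was performed on 3 samples with a control hairpin (shNC) and 3 with a doxycycline-inducible hairpin against PQBP1 (shPQBP1), described as biological triplicates. By the labels every sample was taken at day 3, the shPQBP1 cells had received doxycycline (1 µg/ml) and the shNC cells were untreated. The methods of the study also name a shorter time after induction, so the time is not certain. Hairpin and doxycycline therefore differ together and their parts cannot be told apart. By the methods of the study, hairpin lines were made with lentivirus and selected with puromycin. Whether a group held more than 1 such stable line is not stated, so each group may stand for 1 line only.

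NRF2 is a transcription factor that is held in the cytoplasm by KEAP1, an adaptor that hands it to a ubiquitin ligase for destruction. When oxidants or electrophiles modify KEAP1, NRF2 escapes, pairs with a small MAF protein and binds antioxidant response elements near its target genes. The targets include quinone reduction (NQO1), haem breakdown (HMOX1), glutathione synthesis (GCLM, GCLC), the thioredoxin and peroxiredoxin systems (TXNRD1, SRXN1) and OSGIN1, an oxidative stress-induced growth inhibitor. NRF2 is controlled mainly at the level of its protein, which RNA-seq does not measure.

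One form of the antioxidant response element, TGANTCAGC (N is any base), was searched on both strands of the 5000 bases before the canonical transcript start of each gene. This form also holds the letters of an AP-1 site. It was present before 5 of the 9 genes, NQO1, HMOX1, GCLC, SRXN1 and OSGIN1, and before 14.6% of the 11373 tested genes with a full window. The match nearest the start is printed for each gene, except that for HMOX1 the farther one, which overlaps no other match, is given. They are shown because NRF2 is known to act through elements of this form. The motif stands in capitals, with 12 bases on each side, read 5′ to 3′ on the strand that carries it in hg38.
NQO1, 455 bases before the start, chr16:69726995-69727027, minus strand: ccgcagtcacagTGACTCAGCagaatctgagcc
HMOX1, 3940 bases before the start, chr22:35377144-35377176, minus strand: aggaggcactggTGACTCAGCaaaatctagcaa
GCLC, 3156 bases before the start, chr6:53548237-53548269, plus strand: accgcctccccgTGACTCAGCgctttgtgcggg
SRXN1, 272 bases before the start, chr20:653452-653484, minus strand: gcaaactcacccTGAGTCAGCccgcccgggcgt
OSGIN1, 99 bases before the start, chr16:83953129-83953161, minus strand: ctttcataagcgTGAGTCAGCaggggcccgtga
Distances count from the canonical transcript start, whereas the gene positions given further below span all annotated transcripts. The GCLC and OSGIN1 elements therefore lie inside the positions given for those genes. The variable base was C in the NQO1, HMOX1 and GCLC elements and G in the SRXN1 and OSGIN1 elements. GCLC had a second match 3361 bases before its start, and HMOX1 had an overlapping pair of matches, one on each strand, 3160 and 3162 bases before its start. No match was found in this window for NFE2L2, KEAP1, GCLM or TXNRD1. The motif and window were chosen after another motif, TGACNNNGC, had been looked at in the RefSeq promoters (GRCh38.p14, 300 bases each). That motif has fewer fixed bases but requires C at the variable base, so the printed SRXN1 and OSGIN1 elements do not match it. In those promoters TGACNNNGC matched GCLM, KEAP1 and TXNRD1 of the 8 genes listed, and 13.3% of all promoters.

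The samples were first compared with one another. The FPKM values summed to between 278286 and 318484 per sample, and since FPKM carries no read counts the depth is unknown. PQBP1, the targeted gene, measured 7.18, 6.67 and 6.93 FPKM in shNC cells and 1.68, 1.72 and 1.44 FPKM in shPQBP1 cells, a log2 fold change of -2.04 (SE 0.10, limma adjusted p = 0.00154). Of the epithelial markers, KRT7, KRT8, KRT18 and PAX8 were detected, while WT1, EPCAM, ESR1 and MUC16 had a mean FPKM under 1. PAX8 was higher (limma adjusted p = 0.102) and WT1 lower in every shPQBP1 sample than in any shNC sample. The mesenchymal markers VIM and CDH2 had a mean of 1235 and 22.5 FPKM, and VIM was higher without overlap (limma adjusted p = 0.217). FN1 measured 42.5, 44.6 and 43.1 FPKM in shNC and 127, 155 and 150 FPKM in shPQBP1 cells (log2 fold change 1.72, limma adjusted p = 0.00176). The leukocyte marker PTPRC was listed at 0 in every sample, and CD14 and CD79A had a mean FPKM under 1. Of the endothelial markers, VWF lay between 0.01 and 0.04, PECAM1 at 0.24, 0.23 and 0.25 in shNC against 0.02, 0.03 and 0.06 in shPQBP1 cells, and CDH5 at 2.11, 2.96 and 2.49 against 3.1, 3.55 and 3.64 (limma adjusted p = 0.151). PECAM1 and CDH5 separated the groups in opposite directions, and the part of any marker difference in the results was not tested. The shNC sample 1 stood apart, with a mean correlation of 0.940 with the other samples across genes, against 0.955 to 0.959 for the other 5. Its log2 values also rose with the GC content of genes (Spearman's rho 0.631), whereas those of shPQBP1 samples 1 and 3 fell with it (-0.477 and -0.398). Across genes the log2 fold change correlated with GC content at a rho of -0.459. Values with the trends on GC content and on transcript length removed together (the GC and length correction) and values without shNC sample 1 are therefore given beside the results they move.

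In the comparison of shPQBP1 with shNC samples, NQO1 was the member that passed the test over the whole table. Genes were compared as log2(FPKM + 0.1), a scale on which changes of low genes appear too small, with limma and Benjamini-Hochberg adjustment over the 11413 genes tested. At an adjusted p under 0.05, 1 of the 9 genes was called, against 2.91% of all genes tested. At an unadjusted p under 0.05, NQO1 and GCLM were called, both higher, against 23.6% of all genes in either direction and 11.9% in the higher direction. None passed a fold change of 2 with an unadjusted p under 0.05, which 1.52% of all genes did. The groups did not overlap in 4 members, NQO1, GCLM, NFE2L2 and GCLC, all higher in the shPQBP1 samples, against 34.4% of all genes in either direction and 17.3% in the higher direction. The median log2 fold change of the 9 genes was 0.24, against 0.02 for all genes tested. It was 0.12 without shPQBP1 sample 2, 0.15 without shNC sample 3 and 0.31 with the GC and length correction. With the GC and length correction, 4 members passed the unadjusted threshold, KEAP1 and HMOX1 in addition. The number of all genes passing it also rose, to 3145 of 11385 tested, against 2689 of 11413 without the correction. In bulk RNA a change in the share of cells that express a gene and a change in the RNA per cell cannot be told apart.

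**Figure D1:**
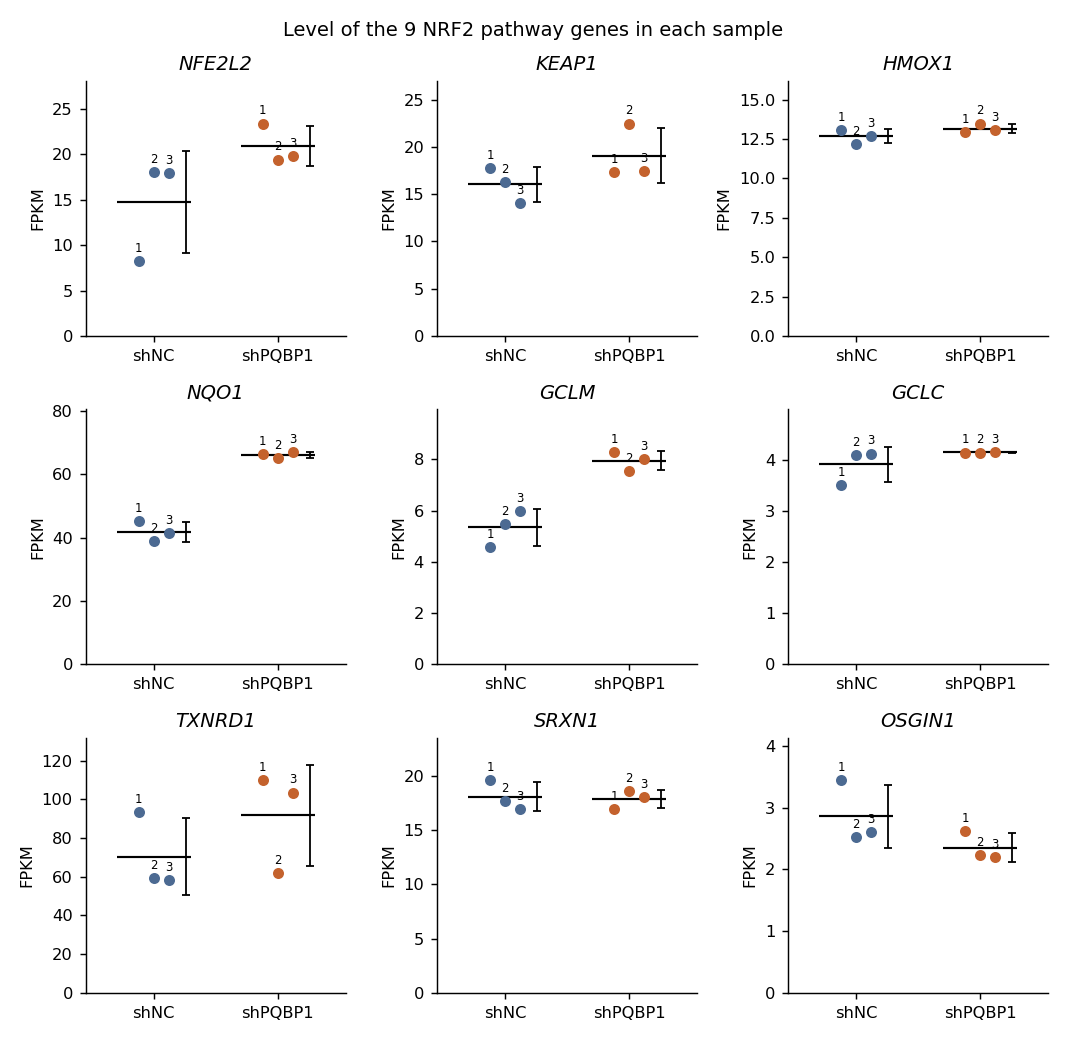
FPKM (vertical axis, linear, from 0) of the 9 genes in each shNC and shPQBP1 sample, numbered by replicate, with the group mean as a line and its SD as a bar. NQO1 and GCLM separate the groups, NFE2L2 is low in shNC sample 1 only, and TXNRD1 is high in shNC sample 1 and in shPQBP1 samples 1 and 3.

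**Figure D2:**
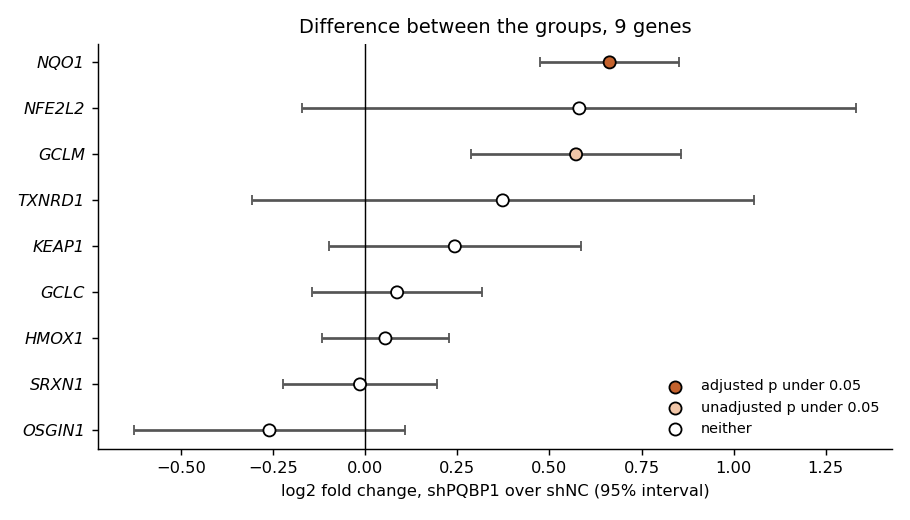
Log2 fold change of shPQBP1 over shNC for each of the 9 genes, with the 95% interval from limma (3 samples per group) and the fill giving the threshold passed. The interval excludes 0 for NQO1 (0.47 to 0.85) and GCLM (0.29 to 0.86) and includes it for the other 7 genes.

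NFE2L2 (ENSG00000116044, chr2:177218667-177392756, minus strand, 5 exons in the canonical transcript) was higher in each shPQBP1 sample than in any shNC sample, but its difference did not pass the test. Its FPKM was 8.27, 18 and 17.9 in the shNC samples and 23.4, 19.4 and 19.8 in the shPQBP1 samples. Apart from shNC sample 1 the values lay close together, and the gap between the highest shNC and the lowest shPQBP1 sample was small beside the spread of the shNC group. The group means were 14.7 ± 5.59 and 20.9 ± 2.18 (SD, n = 3 each), giving a log2 fold change of 0.58 (SE 0.31, limma adjusted p = 0.296, two-sided exact permutation p = 0.1, the smallest that 3 samples against 3 allow). Without shNC sample 1 the log2 fold change was 0.21 (adjusted p = 0.261). Counted over all annotated transcripts, NFE2L2 shares 3509 exonic bases with HNRNPA3 on the opposite strand, a splicing regulator with a mean FPKM of 152. The canonical NFE2L2 transcript has 2446 bases, so not all of the shared stretch lies in it. Whether any of the stretch lies in it was not determined. The strand setting of the counting is not given in the sources used here. Reads from the shared stretch could therefore belong to either gene.

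KEAP1 (ENSG00000079999, chr19:10486125-10503558, minus strand), the inhibitor of NRF2, did not pass the test. Its FPKM was 17.8, 16.3 and 14.1 in the shNC samples and 17.3, 22.5 and 17.4 in the shPQBP1 samples. The groups overlapped, and only shPQBP1 sample 2 stood above all shNC samples. The means were 16.1 ± 1.86 and 19.1 ± 2.94 (SD, n = 3 each), giving a log2 fold change of 0.24 (SE 0.14, 95% interval -0.10 to 0.58, limma adjusted p = 0.327). Without shPQBP1 sample 2 it was 0.12 (adjusted p = 0.593) and without shNC sample 3 it was 0.15 (adjusted p = 0.550). The canonical transcript of KEAP1 has a GC content of 60.2%, above the median of 47.5% of the tested genes, and with the GC and length correction its log2 fold change was 0.45 (adjusted p = 0.0560). The NFE2L2 to KEAP1 ratio within a sample was 0.465, 1.11 and 1.27 in the shNC samples and 1.35, 0.864 and 1.14 in the shPQBP1 samples, and the groups overlapped.

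NQO1 (ENSG00000181019, chr16:69706996-69726668, minus strand, 6 exons), the quinone reductase, was higher in the shPQBP1 samples. Its FPKM was 45.2, 38.9 and 41.4 in the shNC samples and 66.3, 65.2 and 67.0 in the shPQBP1 samples. The shPQBP1 samples lay within 2 FPKM of one another, and the lowest of them (65.2) stood well above the highest shNC sample (45.2). The means were 41.8 ± 3.22 and 66.2 ± 0.919 (SD, n = 3 each), which is 1.58 times the control level, and the log2 fold change was 0.66 (SE 0.08, 95% interval 0.47 to 0.85, limma adjusted p = 0.0181). With the GC and length correction it was 0.64 (adjusted p = 0.00844). Without shNC sample 1 it was 0.72 (adjusted p = 0.00887), whereas without shNC sample 2, shNC sample 3 or any one shPQBP1 sample it was 0.61 to 0.67 and the adjusted p rose to between 0.0532 and 0.102.

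HMOX1 (ENSG00000100292, chr22:35380361-35394214, plus strand), the inducible haem oxygenase and a classical target of NRF2, differed little between the groups. Its FPKM was 13.1, 12.2 and 12.7 in the shNC samples and 12.9, 13.48 and 13.04 in the shPQBP1 samples. The groups overlapped, and all 6 values lay between 12.2 and 13.48. The log2 fold change was 0.05 (SE 0.07, limma adjusted p = 0.646), with a 95% interval of -0.12 to 0.23. Without correction, a change beyond 1.17 times the control level lay outside this interval. The HMOX1 transcript has a GC content of 57.7%, and with the GC and length correction the log2 fold change was 0.231 (SE 0.079, limma unadjusted p = 0.0264, adjusted p = 0.129). That value lies above the upper end of the uncorrected interval (0.227), so the bound does not hold with the correction. The NQO1 to HMOX1 ratio was 3.46, 3.19 and 3.26 in the shNC samples and 5.12, 4.84 and 5.14 in the shPQBP1 samples. These ratios did not overlap, with a log2 difference of 0.61 (two-sided exact permutation p = 0.1, Benjamini-Hochberg 0.175 over 7 ratios). The 7 pairs were chosen after the values were seen, so the separation and its p-values are a description only. The difference between the log2 fold changes of the pair was 0.61 as measured and 0.41 with the GC and length correction.

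GCLM and GCLC encode the modifier and the catalytic subunit of glutamate-cysteine ligase, the enzyme of the first step of glutathione synthesis. Neither passed the adjusted threshold. GCLM (ENSG00000023909, chr1:93885199-93909456, minus strand, 7 exons) measured 4.58, 5.47 and 5.99 FPKM in shNC cells and 8.29, 7.55 and 8.03 FPKM in shPQBP1 cells. Every shPQBP1 sample exceeded every shNC sample, the means being 5.35 ± 0.713 and 7.96 ± 0.375 (SD, n = 3 each). Its log2 fold change of 0.57 (SE 0.12) passed the unadjusted threshold (limma p = 0.00250) and not the adjusted one (limma adjusted p = 0.0597, exact permutation p = 0.1). Without shNC sample 1 it was 0.47 (adjusted p = 0.0485). GCLM has the lowest GC content of the 9 genes, 37.3%, and the longest canonical transcript, 4883 bases, and with the GC and length correction its log2 fold change was 0.31 (adjusted p = 0.0987).

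GCLC (ENSG00000001084, chr6:53497341-53616970, minus strand, 16 exons) measured 3.51, 4.09 and 4.12 FPKM in shNC cells and 4.14, 4.14 and 4.15 FPKM in shPQBP1 cells. The groups did not overlap, but shNC samples 2 and 3 lay just below the shPQBP1 samples and shNC sample 1 accounted for most of the difference in means. The log2 fold change was 0.09 (SE 0.10, 95% interval -0.14 to 0.32, limma adjusted p = 0.588), and 0.01 without shNC sample 1. The ratio of GCLM to GCLC was 1.305, 1.337 and 1.454 in the shNC samples and 2.002, 1.824 and 1.935 in the shPQBP1 samples. The modifier subunit thus stood higher relative to the catalytic subunit in every shPQBP1 sample, with a log2 difference of 0.49 (two-sided exact permutation p = 0.1, Benjamini-Hochberg 0.175 over 7 ratios). This pair too was chosen after the values were seen, so its p-values are a description only. Between the fold changes of the subunits the log2 difference was 0.49 as measured, 0.45 without shNC sample 1 and 0.26 with the GC and length correction.

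**Figure D3:**
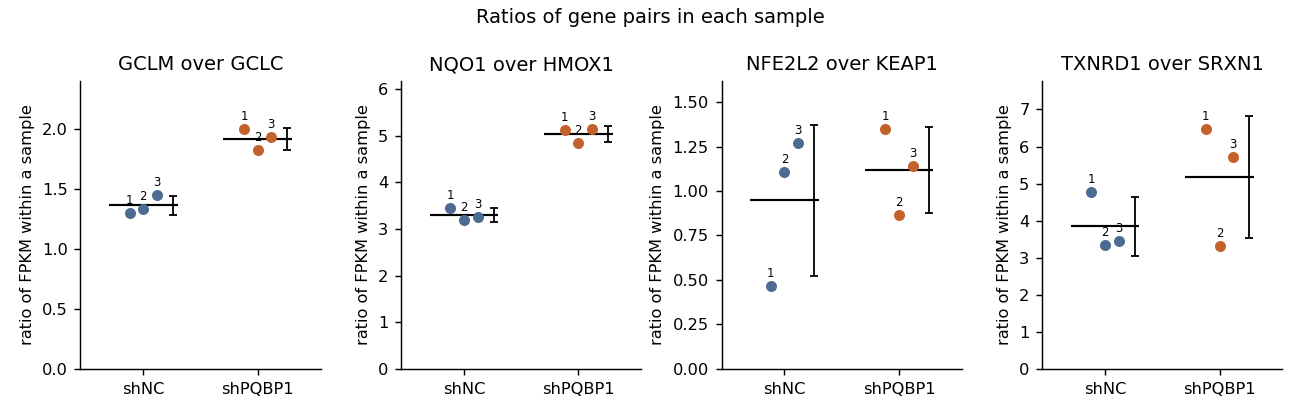
Ratio of the FPKM of 2 genes within each sample (vertical axis, linear, from 0) for 4 of the 7 pairs computed, with the group mean as a line and its SD as a bar. The pairs were chosen after the values were seen. The ratios of GCLM to GCLC and of NQO1 to HMOX1 do not overlap between the groups, whereas those of NFE2L2 to KEAP1 and of TXNRD1 to SRXN1 do.

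TXNRD1 (ENSG00000198431, chr12:104215779-104350307, plus strand, 17 exons), the cytosolic thioredoxin reductase, was the most abundant of the 9 genes and also among the most variable. Its FPKM was 93.3, 59.2 and 58.5 in the shNC samples and 109.7, 61.8 and 103.5 in the shPQBP1 samples. The values fell at 2 levels that cut across the groups, with shNC sample 1 and shPQBP1 samples 1 and 3 at 93.3 or above and the other 3 samples at 61.8 or below. The means were 70.3 ± 19.9 and 91.7 ± 26.03 (SD, n = 3 each), and the log2 fold change of 0.37 (SE 0.28, 95% interval -0.31 to 1.05) did not pass the test (limma adjusted p = 0.430). Without shNC sample 1 it was 0.59 (adjusted p = 0.248), without shPQBP1 sample 2 it was 0.63 (adjusted p = 0.248) and without shPQBP1 sample 1 it was 0.22 (adjusted p = 0.722).

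SRXN1 (ENSG00000271303, chr20:646615-653200, minus strand, 2 exons) encodes sulfiredoxin, which restores overoxidised peroxiredoxins. Its FPKM was 19.6, 17.7 and 17.0 in the shNC samples and 17.0, 18.6 and 18.1 in the shPQBP1 samples. The groups overlapped throughout, with means of 18.1 ± 1.35 and 17.9 ± 0.853 (SD, n = 3 each). The log2 fold change was -0.01 (SE 0.09, limma adjusted p = 0.931), and its 95% interval of -0.22 to 0.20 bounds the level between 0.856 and 1.14 times the control. Its sign turned to positive with the GC and length correction (0.07) and without shNC sample 1 (0.04) or shPQBP1 sample 1 (0.02).

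OSGIN1 (ENSG00000140961, chr16:83931311-83966332, plus strand) had the lowest level of the 9 genes. Its FPKM was 3.44, 2.53 and 2.60 in the shNC samples and 2.62, 2.24 and 2.2 in the shPQBP1 samples. The groups overlapped, since shPQBP1 sample 1 lay above shNC samples 2 and 3. The means were 2.86 ± 0.506 and 2.35 ± 0.232 (SD, n = 3 each), giving a log2 fold change of -0.26 (SE 0.15, limma adjusted p = 0.329), which was -0.12 without shNC sample 1 (adjusted p = 0.535). At a GC content of 64.7% it has the highest of the 9 genes, and with the GC and length correction the log2 fold change was -0.03 (adjusted p = 0.894).

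The 9 genes spanned a wide range of levels in HEY cells. By mean FPKM over the 6 samples, which is per length of transcript, the order was TXNRD1 (81.0), NQO1 (54.0), SRXN1 (18), NFE2L2 (17.8), KEAP1 (17.6), HMOX1 (12.9), GCLM (6.65), GCLC (4.02) and OSGIN1 (2.60). SRXN1, NFE2L2 and KEAP1 differed in mean by less than their spread within a group, and the ranges of TXNRD1 and NQO1 over the samples overlapped. The ranges of the other neighbours in this order did not overlap. TXNRD1 and NQO1 stood at percentiles 96.3 and 94.4 of the genes tested, and OSGIN1 at 26.1. Within the sample series the members did not follow one order. The shNC sample 1 held the lowest value of NFE2L2, GCLM and GCLC and the highest of SRXN1 and OSGIN1, and shPQBP1 sample 1 held the highest value of NFE2L2, GCLM and TXNRD1 and the lowest of SRXN1.

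The genes whose profile over the 6 samples was most like that of a member were found by the root mean square difference of centred log2(FPKM + 0.1) values, as a description. For NQO1 they were MAGED1 (0.0313), DKK3 (0.0381) and NNMT (0.0469). MAGED1 measured 2.85, 2.40 and 2.65 FPKM in shNC cells and 4.04, 3.98 and 4.17 FPKM in shPQBP1 cells. The member closest to NQO1 was GCLM, at 0.173 and rank 304 among the tested genes. For NFE2L2 the closest genes were CREBRF (0.0452), TMEM168 (0.0454) and TBC1D23 (0.0533), each of which was also low in shNC sample 1. TBC1D23, for example, measured 5.81, 12.8 and 12.1 FPKM in shNC cells and 15.1, 12.8 and 14.0 FPKM in shPQBP1 cells. For TXNRD1, a gene chosen for this comparison after its values were seen, they were SLC35A5 (0.108), SLC35A2 (0.129) and AKT1 (0.153). The kinase gene AKT1 measured 11.1, 5.45 and 5.16 FPKM in shNC cells and 9.48, 5.78 and 10.6 FPKM in shPQBP1 cells, the same 3 samples being high as for TXNRD1.

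Other genes of oxidant defence were counted in 7 lists holding 79 genes, of which 78 were in the table used and 65 were tested. At an unadjusted p under 0.05, 10 of these 65 stood higher and 3 lower, against 11.9% and 11.7% of all genes, and 3 were higher and none lower at an adjusted p under 0.05, against 1.73% and 1.18%. The median log2 fold change over the 65 was 0.05, beside 0.02 for all genes tested. With the GC and length correction, 18 list genes passed the unadjusted threshold in either direction, against 13 without it. Among all genes tested 3145 of 11385 passed it with the correction, against 2689 of 11413 without. With the correction the thioredoxin and peroxiredoxin list held 1 lower gene, and the other lists held none. Without shNC sample 1 the number of list genes at an adjusted p under 0.05 was 5. Without shNC sample 2 or 3 or shPQBP1 sample 1 it was 1, and without shPQBP1 sample 2 or 3 it was 0. The number over all genes tested also moved, from 332 to 464, 93 and 65 without shNC samples 1, 2 and 3. Without shPQBP1 samples 1, 2 and 3 it was 46, 36 and 30.

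**Figure D4:**
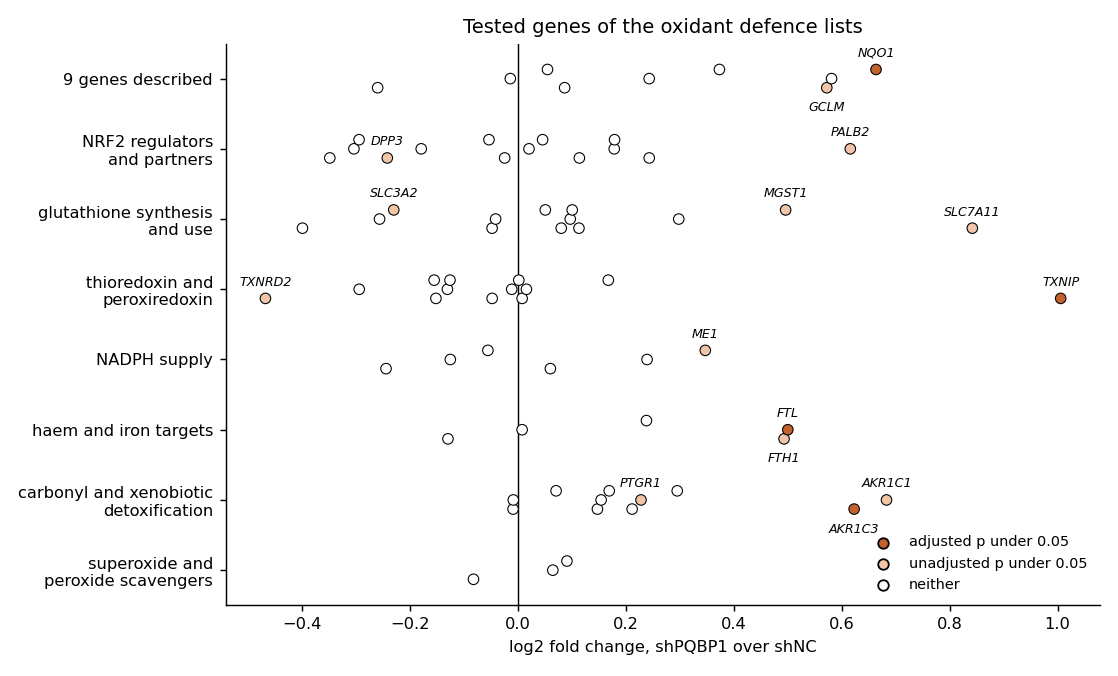
Log2 fold change of shPQBP1 over shNC (horizontal axis) for the 9 genes and for the tested genes of the 7 lists, 1 point per gene, with the fill giving the threshold passed and names for genes at an unadjusted p under 0.05. Points of the lists fall on both sides of 0, and TXNIP (1.01) lies farthest to the right.

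Among the 14 regulators and partners of NRF2, 1 stood higher and 1 lower at the unadjusted threshold, against 11.9% and 11.7% of all genes. PALB2, a BRCA2 partner that also binds KEAP1, measured 2.58, 4.25 and 4.35 FPKM in shNC cells and 6.68, 4.99 and 5.31 FPKM in shPQBP1 cells (log2 fold change 0.62, limma adjusted p = 0.178), and without shNC sample 1 the log2 fold change was 0.38. DPP3, a peptidase that competes with NRF2 for KEAP1, had 10.5, 8.92 and 9.43 against 8.15, 8.31 and 7.83 (-0.24, limma adjusted p = 0.176), and -0.06 with the GC and length correction. The small MAF genes, BACH1, CUL3 and SQSTM1 were among the 12 that passed neither threshold.

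For glutathione use, 13 of 19 genes were tested, and none passed the adjusted threshold. At the unadjusted threshold 2 stood higher and 1 lower, against 11.9% and 11.7% of all genes. The cystine transporter is made of a light chain, SLC7A11, and a heavy chain, SLC3A2, and their levels stood on opposite sides of the control. SLC7A11 measured 2.69, 5.73 and 5.69 FPKM in shNC cells and 8.94, 7.19 and 8.13 FPKM in shPQBP1 cells. Every shPQBP1 sample exceeded every shNC sample, with a log2 fold change of 0.84 (SE 0.30, limma adjusted p = 0.167), which was 0.49 without shNC sample 1 (adjusted p = 0.0771) and 0.49 with the GC and length correction (adjusted p = 0.0484). SLC3A2 had 39.9, 34.9 and 38.7 against 34.1, 33.3 and 29.4, a log2 fold change of -0.23 (limma adjusted p = 0.206), which was -0.05 with the GC and length correction. MGST1, a membrane-bound glutathione transferase, had 9.78, 11.5 and 11.9 against 14.8, 15.9 and 16.1, a log2 fold change of 0.50 (limma adjusted p = 0.0568), which was 0.41 without shNC sample 1 (adjusted p = 0.0427) and 0.29 with the GC and length correction (adjusted p = 0.0776).

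In the thioredoxin and peroxiredoxin list, 13 of 14 genes were tested and TXNIP alone passed the adjusted threshold, which 2.91% of all genes did. TXNIP binds and inhibits thioredoxin, and it is known for its control by glucose through MondoA rather than as a target of NRF2. It measured 12.4, 11.6 and 13.4 FPKM in shNC cells and 23.6, 26.5 and 25.3 FPKM in shPQBP1 cells, with no overlap. Its log2 fold change was 1.01 (SE 0.09, limma adjusted p = 0.00803). The adjusted p rose to 0.0566 without shPQBP1 sample 2 and 0.0664 without shPQBP1 sample 3. With the replicate number as a block in limma it was 0.137, and 0.0749 with the block and the GC and length correction. The mitochondrial reductase TXNRD2 had 3.69, 2.56 and 3.48 against 2.29, 2.22 and 2.36, a log2 fold change of -0.47 (limma adjusted p = 0.145), which was -0.24 with the GC and length correction.

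Of the 6 genes that supply NADPH, 1 was higher at an unadjusted p under 0.05, against 11.9% of all genes. The malic enzyme gene ME1 measured 10.4, 10.2 and 10.3 FPKM in shNC cells and 12.8, 13 and 13.6 FPKM in shPQBP1 cells, with no overlap. Its log2 fold change was 0.35 (SE 0.07, limma adjusted p = 0.0568), 0.35 without shNC sample 1 (adjusted p = 0.0483) and 0.15 with the GC and length correction (adjusted p = 0.469).

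The ferritin chains, which store iron and are targets of NRF2, were the 2 genes of 5 tested for haem and iron that passed the unadjusted threshold. Both stood higher, as did 11.9% of all genes at that threshold. FTL, the light chain, measured 2118, 1774 and 1807 FPKM in shNC cells and 2591, 2582 and 2870 FPKM in shPQBP1 cells. It rose with no overlap, by a log2 fold change of 0.50 (SE 0.09, limma adjusted p = 0.0424). The adjusted p was 0.0187 without shNC sample 1 and 0.102 to 0.163 without any one of the other 5 samples. It was also above the threshold without the mean-variance trend (0.0639) and with every gene above 0 tested (0.235). With the replicate number as a block in limma it was 0.215, and 0.0749 with the block and the GC and length correction. With that correction alone the log2 fold change of FTL was 0.65 (limma adjusted p = 0.00752). FTH1, the heavy chain, had 400.1, 510.9 and 422.0 against 505.4, 736.3 and 646.3, which overlapped (log2 fold change 0.49, limma adjusted p = 0.144). Both have many processed pseudogenes, so that reads could be split between copies and the levels are uncertain.

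Of the 11 tested genes of carbonyl and xenobiotic detoxification, 3 were higher at an unadjusted p under 0.05 and none lower. Of all genes tested, 11.9% were higher and 11.7% lower at that threshold. AKR1C3, an aldo-keto reductase, measured 6.34, 5.26 and 5.50 FPKM in shNC cells and 8.18, 9.78 and 8.53 FPKM in shPQBP1 cells. It rose by a log2 fold change of 0.62 (SE 0.11, limma adjusted p = 0.0471), with an adjusted p of 0.0333 without shNC sample 1 and 0.111 to 0.159 without any one of the other 5 samples. Quantile normalization (0.0739) and testing every gene above 0 (0.0878) also took it above the threshold. So did the replicate number as a block in limma (0.236), also with the GC and length correction (0.102). The depleted gene PQBP1 too was above the threshold with the block (limma adjusted p = 0.0686) and with the block and that correction (0.0543). With that correction alone the log2 fold change of AKR1C3 was 0.65 (limma adjusted p = 0.0120). AKR1C1 had 1.5, 1.19 and 1.43 against 2.38, 2.47 and 1.95, with no overlap (0.68, limma adjusted p = 0.0680). With the GC and length correction its log2 fold change was 0.55 (limma adjusted p = 0.132). The AKR1C genes are close paralogs and their reads may be exchanged. PTGR1, a reductase of prostaglandins and alkenals, had 28.5, 27.6 and 26.6 against 32.5, 33.6 and 30.7, also with no overlap (0.23, limma adjusted p = 0.137). Of the 3 tested superoxide and peroxide scavengers, none passed either threshold.

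**Figure D5:**
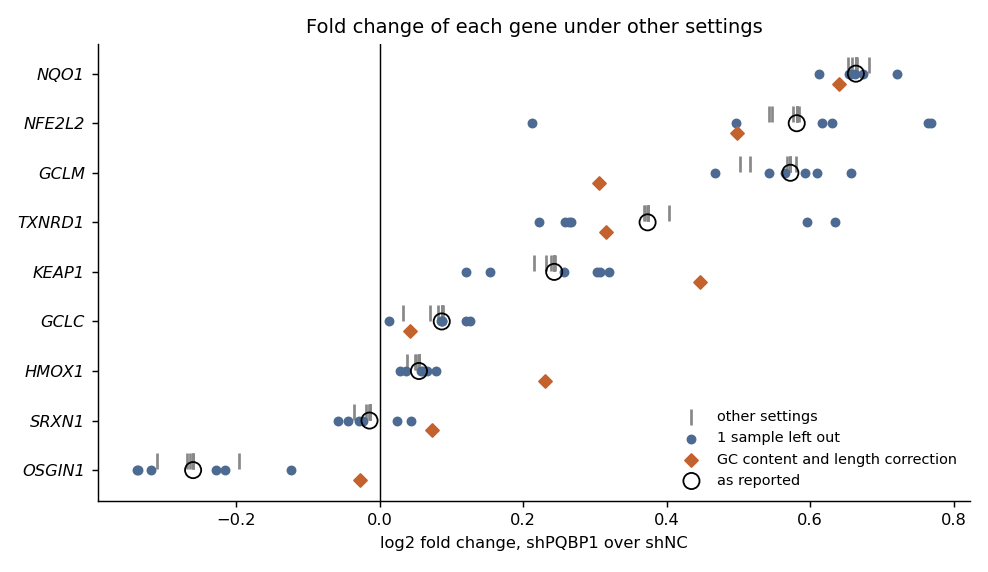
Log2 fold change of shPQBP1 over shNC (horizontal axis) for each of the 9 genes, as reported (open circles), with 1 sample left out, with the GC content and transcript length correction, and under the other settings. NQO1 stays between 0.61 and 0.72, while GCLM, KEAP1, HMOX1 and OSGIN1 move most with the correction and NFE2L2 moves most with shNC sample 1 left out.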

How the data were processed

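Short-read RNA-seq of 6 HEY samples (3 shNC, 3 shPQBP1) was used. The authors mapped reads to hg38 with HISAT2 (2.2.0), sorted them with SAMtools (1.9), assembled transcripts with StringTie (1.3.0) and compared groups with edgeR. They deposited FPKM per gene and sample, rounded to 2 decimals. The annotation release and strand setting are not given in the sources used here. The deposited fold changes, p-values and q-values are the authors' own comparison and were not used. Depth is unknown and counting error could not be stated.

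The 11413 genes whose FPKM averaged 1 or more were tested on log2(FPKM + 0.1) with limma (3.58.1, R 4.3.3), two-sided, using eBayes with its mean-variance trend, without further scaling. Ratios and single genes were compared by exact permutation (Python 3.11.15, scipy 1.17.1). The GC and length correction removed each sample's trend on GC content and log length of the GENCODE 44 canonical transcript (natural splines, 5 degrees of freedom each, 11385 genes). Samples left out did not alter the filter. Positions are from GENCODE 44. The scripts were tested on simulated data.

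The members, lists and alternatives were chosen with earlier results of these data known. The 9 members and PQBP1 were named always. From each list every gene at an adjusted p under 0.05 was named, and of the rest at most the 2 highest and 2 lowest at an unadjusted p under 0.05. The 7 ratios were chosen after the values were seen. GSTM3 and CD3E were not analysed here.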

Additional observations from a re-analysis of the deposited data

How the results depend on the processing

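The results were recomputed under 16 alternatives. The number of the 9 genes at an adjusted p under 0.05 was 0 in limma with the replicate block (2 at an unadjusted p under 0.05), 0 with the block and the GC and length correction, and 0 to 2 with 1 sample left out (2 without shNC sample 1, 0 without any of the other 5). The number at an unadjusted p under 0.05 was 1 with a mean FPKM of at least 10, where 6 of the 9 were tested. It was 4 with the GC and length correction. Of all genes tested, 956 of 3661 and 3145 of 11385 passed that threshold under these settings. The median log2 fold change of the 9 was 0.308 with a mean FPKM of at least 10, 0.306 with the GC and length correction with or without the block, and 0.12 to 0.264 with 1 sample left out. Of the list genes, the number at an adjusted p under 0.05 was 1 with every gene above 0 tested, 0 in limma with the replicate block (9 at an unadjusted p under 0.05) or the block and the GC and length correction (12), and 0 to 5 with 1 sample left out. Their number at an unadjusted p under 0.05 was 7 with a mean FPKM of at least 10 and 8 to 14 with 1 sample left out. The cause of these shifts was not tested. SRXN1 changed sign to 0.0730 with the GC and length correction, with or without the block, to 0.0442 without shNC sample 1 and to 0.0238 without shPQBP1 sample 1, and ran from -0.0585 to 0.0442 with 1 sample left out. No other of the 9 genes changed sign. NQO1 had an adjusted p under 0.05 in 9 of 16 alternatives (0.173 with the block), TXNIP in 12 of 16, FTL in 7 of 16 and AKR1C3 in 6 of 15. Over the whole table, 332 genes passed an adjusted p under 0.05, against 190 with every gene above 0 tested, 211 with a mean FPKM of at least 10, 938 with the GC and length correction, 30 to 464 with 1 sample left out, 0 with the replicate block in limma (1840 at an unadjusted p under 0.05) and 21 with the block and correction. The replicate numbers were not taken as pairs: the deviations of same-numbered samples correlated at -0.186, -0.138 and -0.011 across genes, and no sample correlated best with its own number.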
